A study of Mus musculus with 16 samples.

Results

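The 40 genes described here mark the cells that build and surround the blood vessels of the brain and its meninges: 19 endothelial genes, 11 mural genes (pericytes and smooth muscle) and 10 fibroblast and meningeal genes. They were taken by symbol from a fixed list that was chosen with earlier results of these data known. All 40 were found among the 17097 genes measured. RNA abundance was measured in whole striata of adult male C57BL/6J mice aged 63 days, labelled wild-type, taken 2 h after injection of CNO (clozapine N-oxide, a ligand of designer receptors) at 1 mg/kg or of vehicle, in a series titled for activation of Gi signalling in astrocytes. From each mouse 2 libraries were made, 1 from RNA bound to astrocyte ribosomes and pulled down through a hemagglutinin tag (IP), and 1 from the cleared lysate of the same tissue (input). There are 4 libraries, numbered 2 to 5, in each of the groups CNO IP, vehicle IP, CNO input, vehicle input. The labels carry 8 mouse codes while the series text speaks of 4 mice. Should some codes be the same animal, the spread behind each p-value is partly technical. Nothing in the labels names either the receptor on which CNO acts or what drove the tag in astrocytes. The pull-down was made in mice of both treatments, and the label striatal astrocyte is also on the input libraries, which hold RNA of all striatal cells.

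Brain capillaries are tubes of endothelial cells sealed by tight junctions, which form the blood-brain barrier together with transporters that carry solutes in and pump drugs out. Pericytes, and smooth muscle cells on larger vessels, lie on the endothelium inside a shared basement membrane, and are recruited and kept there by endothelial PDGF-B acting on the receptor PDGFR-beta. Fibroblasts occur around larger vessels and in the meninges, where they make collagen and proteoglycans, and astrocyte endfeet enclose the vessels from outside.

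Recovered read totals were 32.8 to 40.3 M per input library and 52.1 to 61.5 M per IP library. The labelled fractions were checked with marker lists: 12 of 12 astrocyte markers were higher in IP than in input in vehicle mice (median log2 ratio 2.96), and 10 of 10 microglia markers (-4.96) and 9 of 9 markers of medium spiny neurons (-1.66) were lower. Not all other cell types were depleted. Oligodendrocyte markers were called higher in IP in 4 of 7 and lower in 0 (median 0.63). Choroid plexus markers were called higher in 3 of 7 tested and lower in 1 (0.90). Levels are given in CPM, reads scaled to the library size the authors normalized to, and CPM per kilobase of merged exons where genes are compared with each other. A gene is called where limma's Benjamini-Hochberg adjusted p over all genes tested was below 0.05. SE is the standard error of a log2 change, and n = 4 libraries per group throughout.

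In striatal lysate the vascular genes spanned a wide range, and some had few reads. Anpep had 9 to 41 and Lum 19 to 41 reads per vehicle input library. Per kilobase, in vehicle input, the leading endothelial genes were the surface protein Ly6a (mean 27.8 CPM per kb, from 14.3 to 48.7), the membrane protein Itm2a (23.7, from 21.7 to 26.3) and the tight junction protein Cldn5 (19.9, from 17.6 to 22.0). The ranges of Ly6a and Itm2a overlapped, and so did those of Itm2a and Cldn5. The VEGF receptors Flt1 (1.71) and Kdr (0.933), the angiopoietin receptor Tek (2.05), its relative Tie1 (1.34) and the junction cadherin Cdh5 (0.862) lay lower, all below the lowest Cldn5 library. Between them and Cldn5 lay the surface protein Ly6c1 (12.2), the secreted Egfl7 (5.85), the transporter Slco1a4 (5.31), the junction adhesion gene Esam (3.54), the efflux pump Abcb1a (3.29), the TGF-beta co-receptor Eng (2.52) and the adhesion molecule Pecam1 (2.43). The phosphatase Ptprb (1.99), the sialomucin Emcn (0.983), the lectin Clec14a (0.916) and the clotting factor Vwf (0.820) complete the endothelial genes.

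Of the mural genes, the matrix protein vitronectin, Vtn, had a mean of 27.4 CPM per kb in vehicle input and the G-protein regulator Rgs5 had 7.08. Pdgfrb, the PDGF-B receptor, had 4.06 CPM per kb. The smooth muscle genes Acta2 (1.95) and Myh11 (0.209), the muscle filament gene Des (0.325) and the aminopeptidase Anpep (0.163) were lower, and Anpep was the lowest of the 40. The pericyte genes Higd1b (3.34), Ndufa4l2 (1.91), Kcnj8 (1.86) and Abcc9 (1.27) were also below Pdgfrb. Fibroblast and meningeal genes lay between 0.314 CPM per kb for the proteoglycan Lum and 1.83 CPM per kb for the proteoglycan Dcn. The GABA transporter Slc6a13 (1.42), the growth factor Igf2 (1.37), the proteoglycans Ogn (1.01) and Fmod (0.927), and the collagen genes Col1a2 (0.956), Col3a1 (0.586) and Col1a1 (0.555) were within that range. The sulfate transporter Slc13a4 had a mean of 0.431 CPM per kb but ranged from 0.118 to 1.12, and its 0.906, 1.28, 5.09 and 0.535 CPM in vehicle input were high in replicate 4 alone.

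Among the vascular genes in input, 4 were called lower in CNO than in vehicle mice: the tight junction gene Cldn5, the organic anion transporter Slco1a4, the endothelial lectin receptor Clec14a and the mural receptor Pdgfrb. None of the 40 was called higher. Of all 15825 genes tested, 0.183% were called lower and 0.815% higher. The log2 change was below 0 for 37 of the 40 genes, with a median of -0.31, beside 57.5% of all genes and a median of -0.02. The 40 genes tended to move together among libraries, so they are not 40 separate observations. In whole tissue, fewer vascular cells and less RNA per vascular cell cannot be told apart. Pdgfrb was also called higher in IP than in input (log2 ratio 1.49 in vehicle and 0.70 in CNO mice). Which cells its RNA in input came from was not tested.

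The promoters of the endothelial genes called lower in input are shown because these genes moved in the same direction. The sequences are from RefSeq on GRCm38.p6, 250 bases before to 50 bases after the annotated start, each on its gene's strand. They cover chr16:18776597-18776896 on the plus strand for Cldn5, chr6:141856171-141856470 on the minus strand for Slco1a4 and chr12:58269209-58269508 on the minus strand for Clec14a. Capitals mark the hexamers CGGAAG or AGGAAG on either strand, which contain the core of sites bound by ETS factors, a family of transcription factors known for its role in endothelial genes.
Cldn5: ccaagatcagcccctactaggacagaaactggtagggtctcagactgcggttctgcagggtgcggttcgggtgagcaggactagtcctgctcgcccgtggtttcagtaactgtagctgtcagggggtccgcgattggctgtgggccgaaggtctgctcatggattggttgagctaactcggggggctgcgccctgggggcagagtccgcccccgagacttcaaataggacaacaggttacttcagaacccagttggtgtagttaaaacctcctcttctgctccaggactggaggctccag
Slco1a4: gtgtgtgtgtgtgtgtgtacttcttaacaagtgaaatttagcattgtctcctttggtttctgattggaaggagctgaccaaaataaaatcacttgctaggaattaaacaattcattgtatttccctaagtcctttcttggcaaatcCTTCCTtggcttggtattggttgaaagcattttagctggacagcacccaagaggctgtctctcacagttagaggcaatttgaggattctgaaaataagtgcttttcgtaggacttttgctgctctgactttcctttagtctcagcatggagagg
Clec14a: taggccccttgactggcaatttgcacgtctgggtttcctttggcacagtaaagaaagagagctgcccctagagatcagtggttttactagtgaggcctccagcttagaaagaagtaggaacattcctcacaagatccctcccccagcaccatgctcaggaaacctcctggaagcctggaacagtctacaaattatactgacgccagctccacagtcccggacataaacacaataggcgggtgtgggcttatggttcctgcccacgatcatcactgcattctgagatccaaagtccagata

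The hexamers had 1 match in the Slco1a4 window, on the strand opposite to the one printed, and 0 in the Cldn5 and Clec14a windows. Over the promoters in the same table, 10 of 16 promoters of 13 endothelial genes held a match, or 62.5%, against 46.5% of all 32851 promoters. Of the 7 mural promoters 0 held one, and of the 12 fibroblast and meningeal promoters 1. The hexamers differed when taken singly. AGGAAG was in 62.5% of the endothelial and 35.4% of all promoters, and CGGAAG in 6.25% and 16.9%. The AP-1 motif TGANTCA was in 0 of the 16 endothelial promoters and in 7.81% of all, and the SOX motif ACAAAG in 31.2% and 18.7%, each searched on both strands. A match is a run of letters in the window and not a measured site.

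Cldn5, the main claudin of brain endothelial tight junctions (chromosome 16, 18776847 to 18778262 of GRCm38, plus strand), had 17.1, 17.3, 22.9 and 15.999 CPM in CNO input, against 27.1, 24.9, 29.6 and 31.2 CPM in vehicle input. All 4 CNO libraries lay below all 4 vehicle libraries, with CNO replicate 4 the nearest to them. The change on the log2 scale was -0.63 (SE 0.12, adjusted p = 0.0347), with means of 18.3 ± 3.11 CPM in CNO input and 28.2 ± 2.75 CPM in vehicle input (SD).

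Slco1a4 transports organic anions and thyroid hormone across the barrier (chromosome 6, 141805440 to 141856199, minus strand). It had 22.7, 22.8, 28.7 and 20.5 CPM in CNO input, against 32.0, 34.3, 36.0 and 33.9 CPM in vehicle input. The groups did not overlap, and CNO replicate 4 was again the highest of its group. CNO over vehicle gave a log2 change of -0.53 (SE 0.10, adjusted p = 0.0295).

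Clec14a, a C-type lectin of the endothelial surface with a role in vessel sprouting (chromosome 12, 58264720 to 58269290, minus strand), had 2.08, 2.10, 2.46 and 1.93 CPM in CNO input, against 3.60, 3.74, 3.77 and 5.63 CPM in vehicle input. The CNO libraries were close together and below every vehicle library, of which replicate 5 stood well above the others. The log2 change was -0.94 (SE 0.18, adjusted p = 0.0361), the lowest among the 40 genes in input.

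Pdgfrb (chromosome 18, 61045150 to 61085061, plus strand) had 16.3, 14.6, 16.4 and 14.6 CPM in CNO input, against 23.8, 22.1, 23.5 and 19.4 CPM in vehicle input. The groups did not overlap, and the log2 change was -0.52 (SE 0.08, adjusted p = 0.0164).

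The directions of these 4 changes held in all 8 fits that left out 1 input library, but the calls did not. Cldn5 lost its call without CNO input replicates 2, 3 or 5 or vehicle input replicates 2, 4 or 5 (adjusted p up to 0.131), and Slco1a4 without CNO input replicates 2, 3 or 5 or vehicle input replicates 2, 3 or 4 (up to 0.117). Clec14a lost it without any input library except vehicle replicate 5 (up to 0.127), and Pdgfrb without CNO input replicates 3 or 5 or vehicle input replicates 2, 3 or 4 (up to 0.0836). With 1 library left out, 0 to 3 of the 40 genes were called lower in input: 0 without CNO replicates 3 or 5 or vehicle replicates 2 or 4, 1 without vehicle replicate 3, 2 without CNO replicate 2 and 3 without CNO replicate 4 or vehicle replicate 5.

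Separation of the groups was not limited to the 4 called genes. In 15 of 40 genes every CNO input library was below every vehicle input library, while 4.03% of all genes tested had such groups and 3.22% had the reverse. The 15 comprise 9 endothelial genes, of 19, 2 mural genes, of 11, and 4 fibroblast and meningeal genes, of 10. Under upper quartile scaling there were 13 such genes (4.74% of all genes) and under scaling to total reads 12 (4.88%). The 40 genes tended to move together among libraries. CNO input replicate 4 held the highest CNO input value of 20 of them, and vehicle input replicate 5 the highest vehicle input value of 18. A count of these genes is therefore not a count of separate observations, and its excess over the share of all genes was not tested.

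Beside Cldn5, Slco1a4 and Clec14a, the endothelial genes with such groups were growth receptors, an efflux pump and 2 surface or secreted proteins. The VEGF receptor Kdr had 4.94 to 6.999 CPM in CNO input, against 7.70 to 9.42 in vehicle input. The angiopoietin receptor Tek had 5.50 to 7.93 CPM in CNO input, against 9.01 to 10.7 in vehicle input, and Tie1 had 4.47 to 5.15, against 5.51 to 7.40. The drug efflux pump Abcb1a (P-glycoprotein) had 12.4 to 16.6 CPM in CNO input, against 17.3 to 18.6 in vehicle input. The secreted vessel protein Egfl7 and the sialomucin Emcn complete the 9, with highest CNO values of 18.1 and 4.59 CPM and lowest vehicle values of 19.7 and 4.61 CPM. None of these 6 genes passed the test over all genes.

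Among mural genes, Ndufa4l2, a mitochondrial protein gene enriched in pericytes, joined Pdgfrb, with 1.36 to 1.62 CPM in CNO input, against 1.79 to 2.30 in vehicle input. In the fibroblast and meningeal group, the collagen gene Col3a1 had 3.39 to 4.70 CPM in CNO input, against 5.25 to 6.26 in vehicle input. The GABA transporter Slc6a13, found in the meninges, had 2.14 to 2.57 CPM in CNO input, against 2.90 to 6.73 in vehicle input. The collagen gene Col1a2 and the proteoglycan Fmod were the remaining pair. Ndufa4l2, Col3a1, Slc6a13, Col1a2 and Fmod were not called.

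The 3 genes above 0 in input were Ly6a (log2 change 0.04, SE 0.35), Kcnj8 (0.23, SE 0.20) and Lum (0.31, SE 0.29), and none was called. Kcnj8 encodes the pore and Abcc9 the regulatory subunit of the ATP-sensitive potassium channel of pericytes. The sign of the Ly6a change turned when CNO input replicate 3 or vehicle input replicates 3 or 4 were left out (lowest -0.23). Of the other members, Pecam1, Flt1, Cdh5, Ly6c1, Esam, Itm2a, Eng, Ptprb and Vwf, the mural Rgs5, Abcc9, Vtn, Acta2, Myh11, Des, Anpep and Higd1b, and Dcn, Col1a1, Slc13a4, Igf2 and Ogn lay below 0 with overlapping groups and were not called. Endothelial genes had a median log2 change of -0.30 in input, mural genes -0.30, and fibroblast and meningeal genes -0.47.

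**Figure D1:**
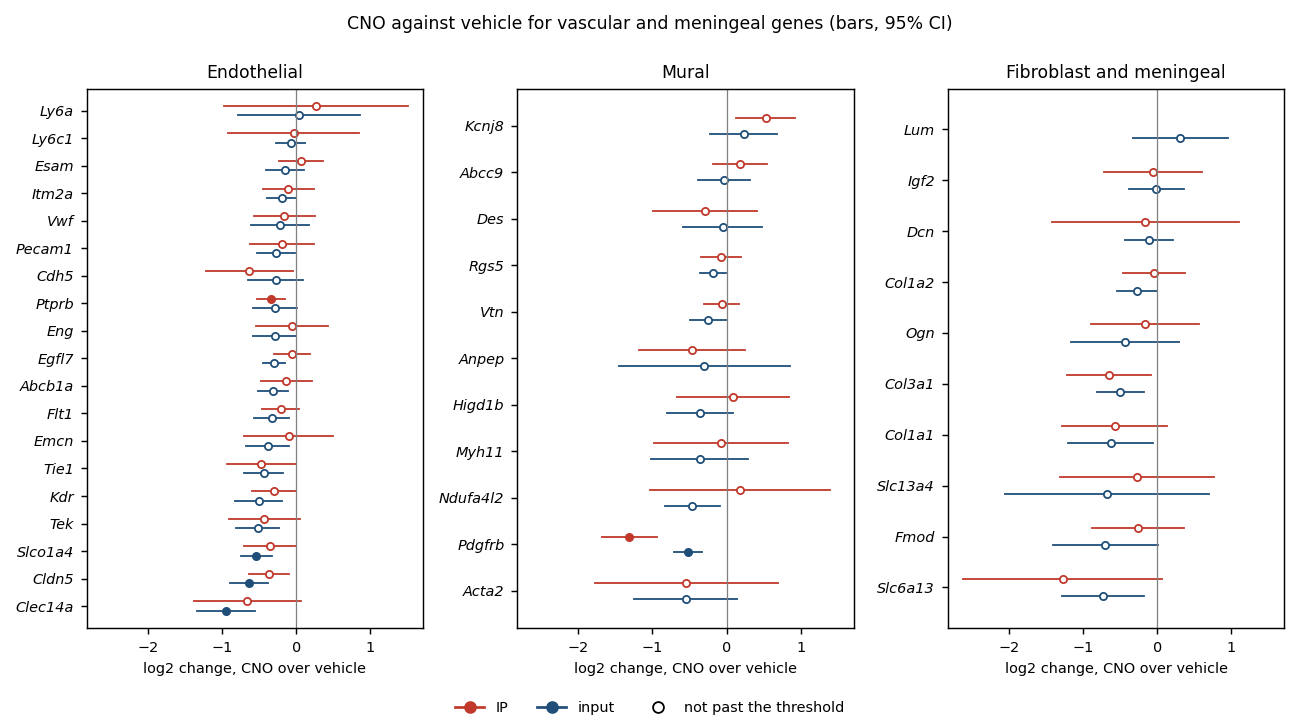
Log2 change of CNO over vehicle for the vascular and meningeal genes in IP (red, upper) and input (blue, lower), in 3 panels by cell type, with 95% confidence intervals from limma. Filled points are genes called over all genes tested; 37 of the 40 input points lie left of 0, and Pdgfrb in IP lies farthest left at -1.31.

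Summed over the 19 endothelial genes, abundance was 267, 269, 291 and 250 CPM in CNO input, against 327, 301, 328 and 375 CPM in vehicle input. Summed over the 11 mural genes it was 115, 109, 125 and 112 CPM in CNO input, against 135, 128, 141 and 149 CPM in vehicle input. The groups did not overlap in either sum, under the authors' scaling, upper quartile scaling or total reads. Without Pdgfrb, however, the 10 other mural genes summed to 98.4, 94.9, 109 and 97.1 CPM in CNO input, against 111, 106, 117 and 129 CPM in vehicle input, and CNO replicate 4 lay above vehicle replicate 3. The fibroblast and meningeal sum was 42.2, 41.0, 42.2 and 39.7 CPM in CNO input, against 44.0, 43.3, 70.0 and 51.8 CPM in vehicle input, and its groups overlapped under both other scalings. Vehicle input replicate 4 held the highest vehicle value of 8 of the 10 fibroblast and meningeal genes, and replicate 5 that of 10 of the 19 endothelial and 6 of the 11 mural genes. Without replicate 4 the vehicle fibroblast sums were 43.3 to 51.8 CPM, still above the CNO values.

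Markers of other cell types were read in the same input libraries. Of 10 microglia markers 5 were below 0 (median log2 change -0.01), and their summed CPM was 925 to 1394 in CNO input, against 696 to 1983 in vehicle input. Medium spiny neuron markers were below 0 in 9 of 9 (median -0.10), oligodendrocyte markers in 7 of 7 (-0.10) and astrocyte markers in 7 of 12 (-0.05), with 0 called in each list. Of all genes tested 57.5% were below 0, and 0.183% were called lower and 0.815% higher. At those shares, 0 calls in lists this short say little. Choroid plexus markers were below 0 in 1 of 5 tested, and the blood cell marker Alas2, the only one measured, was not called (-0.27). No marker in these lists was without reads in any group. A difference between the vascular genes and these lists was not tested.

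**Figure D2:**
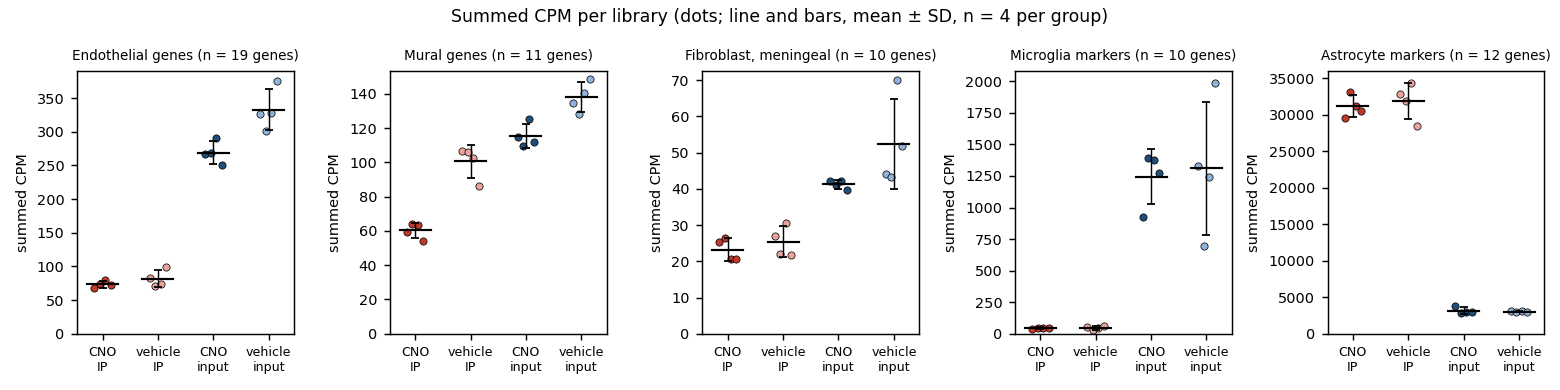
Summed CPM of the endothelial, mural, and fibroblast and meningeal genes and of microglia and astrocyte markers in each library, with group mean and SD (n = 4). In input the CNO libraries lie below all vehicle libraries for the vascular sums, while the microglia sums overlap. For the mural sum in input this does not hold without Pdgfrb (94.9 to 109 against 106 to 129 CPM). In IP the endothelial and fibroblast sums overlap and the mural sums separate. Without Pdgfrb the mural sums in IP overlap too (34.4 to 35.2 CPM in CNO against 33.3 to 40.3 CPM in vehicle mice).

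In the astrocyte ribosome IP, Pdgfrb and the endothelial phosphatase Ptprb were called lower in CNO than in vehicle mice and no vascular gene was called higher. Of all 15598 genes tested, 7.07% were called lower and 10.2% higher, so that the 2 of 39 tested genes are a share below the background. Lum, with at most 5 reads in any IP library, was not tested there. The log2 change was below 0 in 33 of 39 genes (median -0.16), beside 51.7% of all genes (median -0.01). In 5 of the 39 genes the CNO IP libraries all lay below the vehicle IP libraries, against 10.1% of all genes: Cldn5, Tie1, Ptprb, Pdgfrb and Col3a1.

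Pdgfrb had 24.5, 28.7, 28.3 and 19.98 CPM in CNO IP, against 69.4, 68.6, 69.3 and 46.0 CPM in vehicle IP. Every CNO library was far below every vehicle library, including vehicle replicate 5, which stood apart below its group. The log2 change was -1.31 (SE 0.16, adjusted p = 0.000713), or 2.49-fold lower, and the call held without any 1 library. The means were 25.3 ± 4.05 CPM in CNO IP and 63.3 ± 11.5 CPM in vehicle IP (SD).

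The fall of Pdgfrb was larger in IP than in input: the log2 change in IP minus that in input was -0.80 (SE 0.19, 95% confidence interval -1.20 to -0.39, adjusted p = 0.0216). It was the only one of the 40 genes called in this test of the difference, where 0.571% of all 16287 genes were called lower and 4.18% higher. The call was lost without vehicle IP replicate 2 (adjusted p = 0.0556), vehicle IP replicate 4 (0.0535) or vehicle input replicate 5 (0.0501). Both effects come from the same mice.

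None of the other mural genes was called in IP. Summed over the 10 mural genes without it, abundance was 34.9, 35.2, 35.2 and 34.4 CPM in CNO IP, against 37.4, 37.7, 33.3 and 40.3 CPM in vehicle IP, and the groups overlapped. Kcnj8 had the highest log2 change, 0.52 (SE 0.18, adjusted p = 0.0785), and was called without vehicle IP replicate 5 (0.0267). Pdgfb, the gene of the ligand of this receptor, named here for that role after its values were seen, was not called in IP (log2 change -0.08, SE 0.16) or in input (-0.10, SE 0.12).

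Ptprb encodes a phosphatase that acts on the angiopoietin receptor and on the junction cadherin (chromosome 10, 116275523 to 116389535, plus strand). It had 7.16, 7.08, 6.67 and 6.81 CPM in CNO IP, against 8.53, 9.02, 7.84 and 9.86 CPM in vehicle IP. The groups did not overlap, and the CNO values were close together. The log2 change was -0.34 (SE 0.08, adjusted p = 0.0218). Leaving out CNO IP replicate 4, CNO IP replicate 5 or vehicle IP replicate 2 ended the call (up to 0.0650). In input Ptprb had 28.3, 18.6, 22.5 and 18.7 CPM in CNO mice, against 27.5, 23.8, 26.4 and 28.2 CPM in vehicle mice. There the groups overlapped, as CNO replicate 2 was the highest of all 8, and the change was not called (-0.29, SE 0.13).

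The 3 endothelial genes called lower in input were also below 0 in IP but were not called there. Cldn5 had 1.62, 1.39, 1.65 and 1.54 CPM in CNO IP, against 2.05, 1.82, 2.01 and 2.12 CPM in vehicle IP, without overlap (log2 change -0.37, SE 0.12, adjusted p = 0.0731). It was called under upper quartile scaling (0.0386) and without the trend and robust settings (0.0136). Slco1a4 had 4.41, 3.69, 4.42 and 3.39 CPM in CNO IP, against 4.54, 5.80, 4.08 and 6.02 CPM in vehicle IP, with overlap (-0.35, SE 0.15). Clec14a had 0.360, 0.294, 0.493 and 0.710 CPM in CNO IP, against 0.751, 0.655, 0.508 and 0.938 CPM in vehicle IP, with overlap (-0.66, SE 0.32). The change in IP minus that in input was 0.27 for Cldn5 (95% confidence interval -0.07 to 0.60), 0.18 for Slco1a4 (-0.21 to 0.58), 0.29 for Clec14a (-0.49 to 1.06) and -0.06 for Ptprb (-0.40 to 0.28), and none was called.

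Ly6a and Slc6a13 varied widely among IP libraries. Ly6a had 11.8, 21.0, 24.0 and 18.8 CPM in CNO IP, against 21.6, 4.42, 19.97 and 28.0 CPM in vehicle IP. Vehicle replicate 3 was the lowest, and the log2 change of 0.27 (SE 0.54) turned to -0.33 without it. Slc6a13 had 3 to 10 reads per CNO IP library, against 5 to 26 per vehicle IP library, and its change of -1.27 (SE 0.59, adjusted p = 0.192) was called without vehicle IP replicate 5 (0.0495).

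**Figure D3:**
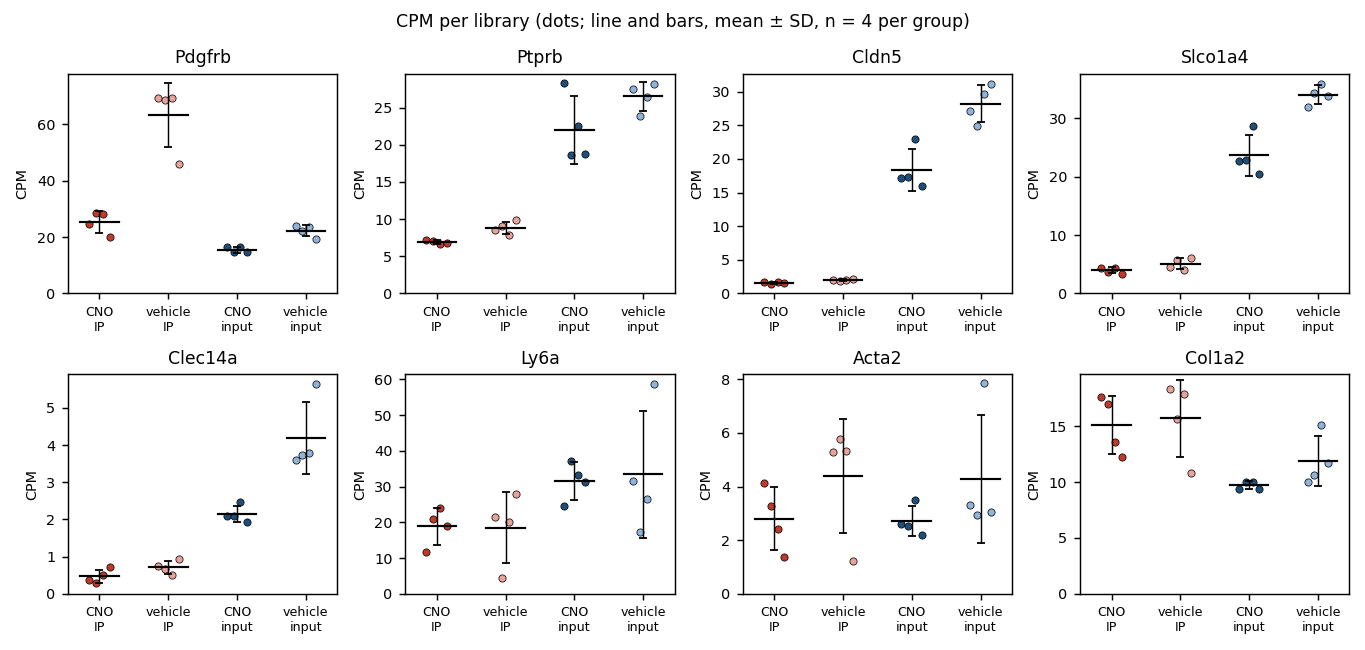
CPM of 8 vascular genes in each library, by group, with group mean and SD (n = 4); each axis starts at 0. Pdgfrb lies higher in IP than in input and lower with CNO in both; Cldn5, Slco1a4 and Clec14a are low in IP and lower with CNO in input.

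Most vascular transcripts were depleted from astrocyte ribosomes. In CNO mice 36 of the 40 genes were called lower in IP than in input and 2 higher, while 35.1% of all 15801 genes tested were called lower and 40.0% higher. In vehicle mice 32 were called lower and 1 higher, while 37.3% of all 15903 genes were called lower and 37.6% higher. Without overlap between libraries, 35 were lower and 2 higher in CNO mice (32.6% and 37.5% of all genes), and 31 lower and 1 higher in vehicle mice (34.5% and 34.6%). The filter asked for 4 of the libraries compared, so a gene near 0 in IP could enter through input alone. Lum did so, with 0 to 5 reads per CNO IP and 1 to 4 per vehicle IP library. Slc6a13 did so in CNO mice, with 3 to 10 reads per IP library. For such genes a lower call was close to fixed in advance, and these counts include them. The median log2 ratio was -2.08 in CNO mice and -2.12 in vehicle mice. Upper quartile scaling shifted the median ratio of all genes by -0.21 in CNO mice and -0.15 in vehicle mice, and scaling to total reads by -0.31 and -0.27, so that ratios near 0 depend on the scaling. No ratio given below changed sign under either.

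Endothelial genes were depleted almost throughout. In CNO mice 19 of 19 were called lower (median log2 ratio -2.27), and in vehicle mice 18 of 19 (-2.42). Cldn5 had the lowest ratio of the group, -3.55 (SE 0.13) in CNO mice and -3.81 (SE 0.10) in vehicle mice. Ly6a had the highest ratio, -0.77 (SE 0.22) in CNO mice and -0.996 (SE 0.63, adjusted p = 0.182) in vehicle mice. It was the endothelial gene not called in vehicle mice, and was called there with the mouse as a block (0.0235). In input Ly6a had 24.5, 37.1, 33.2 and 31.3 CPM in CNO mice, against 31.5, 17.2, 26.5 and 58.7 CPM in vehicle mice. Vehicle replicate 3 was lowest and replicate 5 highest in both input and IP of vehicle mice.

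Of the endothelial genes with the most input reads, Itm2a had 10.3, 9.63, 12.3 and 8.96 CPM in CNO IP, against 34.1, 41.4, 36.8 and 32.4 CPM in CNO input. Vehicle mice had 10.6, 13.9, 8.63 and 11.5 CPM in IP, against 39.4, 42.2, 45.9 and 37.9 CPM in input. IP lay below input in every mouse, with log2 ratios of -1.82 (SE 0.11) in CNO and -1.91 (SE 0.13) in vehicle mice. Slco1a4 and Ptprb had ratios of -2.57 and -1.65 in CNO mice, against -2.75 and -1.59 in vehicle mice, and Clec14a -2.27 and -2.55.

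Mural genes were mixed. In CNO mice 8 of 11 were called lower and 1 higher (median log2 ratio -1.13), and in vehicle mice 6 lower and 1 higher (-0.96). Pdgfrb was the one called higher, with a log2 ratio of 0.70 (SE 0.11, adjusted p = 0.000223) in CNO mice and 1.49 (SE 0.14, adjusted p = 1.04e-05) in vehicle mice. Every IP library held more Pdgfrb than every input library of the same treatment. Per kilobase, Pdgfrb averaged 4.63 CPM in CNO IP and 11.6 CPM in vehicle IP, where only Ly6a was higher among the 40 genes.

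The pericyte genes Rgs5 and Vtn were depleted like the endothelial genes. Rgs5 had 8.37, 9.59, 8.68 and 8.86 CPM in CNO IP, against 32.6, 27.6, 27.8 and 25.4 CPM in CNO input, a log2 ratio of -1.67 (SE 0.09), and -1.79 (SE 0.11) in vehicle mice. Vtn had 12.6, 12.2, 13.9 and 14.4 CPM in CNO IP, against 41.1, 43.4, 54.0 and 48.0 CPM in CNO input, a log2 ratio of -1.81 (SE 0.09), and -1.99 (SE 0.12) in vehicle mice. Higd1b, a hypoxia-inducible domain gene enriched in pericytes, had the lowest mural ratio. It had 0.180, 0.373, 0.214 and 0.158 CPM in CNO IP, against 1.68, 2.43, 2.69 and 2.02 CPM in CNO input, with ratios of -3.28 (SE 0.30) in CNO and -3.72 (SE 0.22) in vehicle mice. All 3 were below input in every library of both treatments.

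The contractile genes Acta2 and Myh11 did not separate clearly. Acta2, the smooth muscle actin, had 4.14, 3.26, 2.40 and 1.38 CPM in CNO IP, against 2.62, 2.54, 3.51 and 2.18 CPM in CNO input. Vehicle mice had 5.28, 5.78, 5.34 and 1.23 CPM in IP, against 3.31, 2.96, 7.85 and 3.05 CPM in input. IP and input overlapped, and the log2 ratio of -0.05 in both treatments turned above 0 without IP replicate 5 or input replicate 4, in CNO mice (0.25 and 0.08) and in vehicle mice (0.48 and 0.28). Myh11, the smooth muscle myosin, had 1.08, 0.490, 1.09 and 0.730 CPM in CNO IP, against 1.44, 1.02, 1.13 and 1.08 CPM in CNO input. In vehicle mice Myh11 had 0.545, 0.764, 1.75 and 0.718 CPM in IP, against 1.43, 1.63, 2.41 and 0.884 CPM in input. IP and input overlapped in both treatments, and Myh11 was not called in CNO mice (-0.52, SE 0.28) or vehicle mice (-0.81, SE 0.41, adjusted p = 0.0983). In vehicle mice it was called with the mouse as a block (0.01005), under total read scaling (0.0369), and without vehicle IP replicate 4 (0.0160) or vehicle input replicate 5 (0.0374). In CNO mice it was called under upper quartile (0.0363) and total read scaling (0.0219).

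Des and Anpep were called lower in CNO mice but not in vehicle mice. Des had 0.810, 0.667, 0.708 and 0.789 CPM in CNO IP, against 1.42, 1.08, 1.27 and 0.899 CPM in CNO input. In vehicle mice Des had 0.939, 0.546, 0.808 and 1.66 CPM in IP, against 0.951, 1.12, 1.15 and 1.65 CPM in input. The fractions separated in CNO mice and overlapped in vehicle mice, where IP replicate 5 was highest, and Des had a log2 ratio of -0.63 (SE 0.21, adjusted p = 0.0171) in CNO mice and -0.39 (SE 0.34) in vehicle mice. Anpep had 0.144, 0.235, 0.193 and 0.316 CPM in CNO IP, against 0.801, 0.332, 0.595 and 0.315 CPM in CNO input. In vehicle mice Anpep had 0.357, 0.236, 0.263 and 0.350 CPM in IP, against 0.861, 0.206, 0.680 and 0.954 CPM in input. The fractions overlapped in both treatments, and the ratio of Anpep was -1.13 (SE 0.40, adjusted p = 0.0258) in CNO mice and -0.96 (SE 0.48, adjusted p = 0.0929) in vehicle mice. Leaving out replicate 2 or 4 of either CNO fraction ended the call of Anpep in CNO mice (up to 0.0743). In vehicle mice it was called with the mouse as a block (0.0313), under total read scaling (0.0401) and without vehicle input replicate 3 (0.00192). The difference between CNO and vehicle mice was not called for either gene.

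Fibroblast and meningeal genes included both the deepest depletion and a gene on the higher side. In CNO mice 9 of 10 were called lower and 1 higher (median log2 ratio -2.34), and in vehicle mice 8 lower and 0 higher (-2.69). The genes called lower include Lum and Slc6a13, which had few IP reads. Dcn, the proteoglycan decorin, had 0.378, 0.235, 0.1501 and 0.710 CPM in CNO IP, against 8.71, 10.4, 10.504 and 9.44 CPM in CNO input. Vehicle mice had 0.432, 0.145, 0.414 and 0.570 CPM in IP, against 10.3, 8.07, 10.7 and 13.6 CPM in input. IP was far below input in every mouse, and the ratios of -4.93 (SE 0.40) in CNO and -4.89 (SE 0.39) in vehicle mice were the lowest of the 40 genes.

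Col1a2, which encodes a chain of type I collagen (chromosome 6, 4504814 to 4541544, plus strand), had 17.6, 17.0, 13.6 and 12.3 CPM in CNO IP, against 9.43, 10.03, 10.05 and 9.37 CPM in CNO input. In vehicle mice it had 18.4, 15.7, 17.9 and 10.9 CPM in IP, against 10.1, 10.7, 15.1 and 11.7 CPM in input. IP exceeded input without overlap in CNO mice, and the groups overlapped in vehicle mice through IP replicate 5. The log2 ratio was 0.62 (SE 0.12, adjusted p = 0.000628) in CNO mice and 0.39 (SE 0.19, adjusted p = 0.0845) in vehicle mice. The ratio in vehicle mice was called when the mouse was a block (0.0418), when vehicle IP replicate 5 was left out (0.00565) and when vehicle input replicate 4 was left out (0.0327). Col1a1, the gene of the partner chain, was called lower in both, so the pair of type I collagen genes lay on opposite sides in CNO mice.

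Igf2, a growth factor of the meninges and choroid plexus, had 4.53, 6.43, 4.78 and 5.11 CPM in CNO IP, against 9.19, 6.46, 7.28 and 7.84 CPM in CNO input. Vehicle mice had 4.66, 3.05, 8.10 and 7.25 CPM in IP, against 7.45, 6.12, 10.3 and 7.44 CPM in input. The groups separated narrowly in CNO mice and overlapped in vehicle mice. The ratio was -0.56 (SE 0.14, adjusted p = 0.00430) in CNO mice and -0.51 (SE 0.31, adjusted p = 0.155) in vehicle mice, where it was called with the mouse as a block (0.0111) and under total read scaling (0.0418). The annotation of Igf2 overlaps the gene model Gm49394 and the antisense gene Igf2os over 64.5% of its exon bases, so its counts are uncertain. The same holds for Ly6c1, Abcb1a and Ly6a, which share 19.0%, 12.5% and 6.33% of their 75-base words with other genes. The gene sharing the most words with each is Ly6c2, Abcb1b and Ly6c1, in that order. Exons of Egfl7 overlap those of Agpat2 and the gene model Gm20532.

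**Figure D4:**
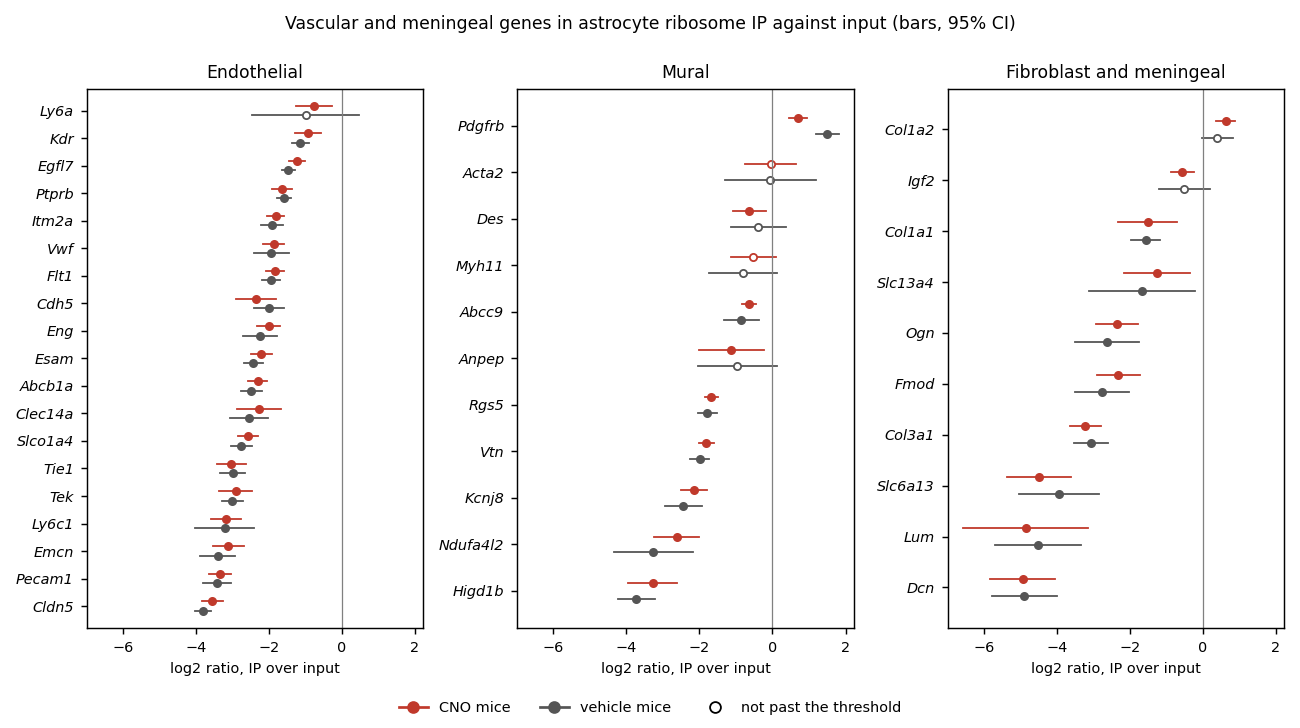
Log2 ratio of IP over input for the 40 genes in CNO mice (red, upper) and vehicle mice (grey, lower), in 3 panels by cell type, with 95% confidence intervals from limma; filled points were called. All 19 endothelial genes lie left of 0, and Pdgfrb and Col1a2 are the genes with both ratios to the right of 0.

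Genes of related vascular functions were read from lists outside the 40, to be set beside the 10.2% of all genes called higher and 7.07% called lower by CNO in IP. The lists were chosen with earlier results of these data known, so the shares below are not an independent comparison. The lists differed in IP over input in vehicle mice, where 37.6% of all genes were called higher and 37.3% lower. Of 17 barrier transport genes 9 were called higher and 5 lower, and of 16 basement membrane genes 8 and 4. Of 14 genes of endothelial activation and flow 3 were called higher and 9 lower. The counts higher and lower were 7 and 4 of 12 junction genes and 8 and 3 of 19 growth factor genes. They were 8 and 6 of 16 mural contractile and signalling genes, and 10 and 8 of 24 fibroblast and matrix genes. Not all of the lists are therefore specific to vessels. Growth factors and their receptors fell in 4 of 19 tested members and rose in 0, among them the apelin peptide gene Apln (log2 change -0.75, SE 0.07) and the VEGF family genes Pgf (-0.65, SE 0.15) and Vegfb (-0.31, SE 0.05). Of 12 further junction genes 0 fell, and the scaffold gene Tjp1 rose (0.53, SE 0.10).

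Genes of endothelial activation and flow rose in 6 of 13 and fell in 1, with the transcription factor Klf4 (3.53, SE 0.17) and the matrix protease Adamts1 (3.06, SE 0.16) among those that rose. Barrier transport genes rose in 6 of 17 and fell in 1. The amino acid transporter Slc7a5 (1.43, SE 0.08), the lysolipid transporter Mfsd2a (1.42, SE 0.17) and the glucose transporter Slc2a1 (1.27, SE 0.07) rose, and the Wnt effector Lef1 fell (-0.89, SE 0.13). Basement membrane genes rose in 2 of 16, fibronectin Fn1 (1.02, SE 0.07) and the laminin chain Lamc1 (0.69, SE 0.09), and fell in 1, the nidogen Nid2 (-0.81, SE 0.12).

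Of 16 contractile and signalling genes of mural cells 3 rose, the calponin Cnn1 (5.51, SE 0.48), the sphingosine phosphate receptor S1pr3 (2.05) and the actin-binding Tagln (1.33), and 2 fell. Of 21 further fibroblast and matrix genes 2 rose, among them the connexin Gjb2 (2.07), and 0 fell. The flow-induced factor Klf2 (-0.69) was no longer called when CNO replicate 2, 4 or 5 or vehicle replicate 2, 3 or 4 was left out of the IP libraries (adjusted p up to 0.109). The smooth muscle actin nucleator Lmod1 (-1.53) was not called when CNO replicate 2 or 5 or vehicle replicate 2, 3 or 4 was left out (up to 0.138), or without the trend and robust settings (0.0608). The endothelin receptor Ednra (-0.67) was not called when CNO replicate 4 or vehicle replicate 2 or 4 was left out (up to 0.0558). The transcription factor Foxc1 (0.95), the other matrix list gene called higher, was not called without any one IP library other than CNO replicate 3 (up to 0.108). The calls of the other genes named from these lists held in all settings run, with adjusted p up to 0.0470.

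In input, where 0.815% of all genes were called higher, Adamts1 (2.08, SE 0.16), Mfsd2a (0.85, SE 0.11), Slc2a1 (0.54, SE 0.06) and Gjb2 (1.26) rose in all settings run. The lists held 2 further calls there. Leaving out CNO input replicate 2, 4 or 5, or vehicle input replicate 2 or 4, ended the call of Klf4 (1.03, adjusted p up to 0.103). Slc7a5 (0.47) lost its call without any one input library other than vehicle replicate 5 (up to 0.0971), or without the trend and robust settings (0.0689). In none of the 7 lists was a gene called lower in input. Only 0.183% of all genes were called lower there, so this absence does not set the lists apart from all genes. Of the listed genes, Sele, Selp, Actg2 and Slc22a2 were not used here.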

How the data were processed

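The deposited values are log2 CPM made by the authors. They used bcl2fastq 2.17, STAR, HTSeq and limma with the mm10 build, per the submitters' processing notes. Strand setting and annotation: not given in the sources used here. A value is the log2 of reads plus a prior of 0.25, over a normalized library size. Whole reads were recovered within 0.01 read for 100% of values. A duplicate line was dropped, leaving 17097 genes. CPM in the text are recovered reads over the normalized library size.

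In R 4.3.3, limma 3.58.1 (lmFit, eBayes with trend and robust settings) was fitted to these log2 values over all genes with at least 15 reads and, in at least 4 libraries, the CPM of 10 reads in the median library. The difference between CNO effects was an interaction over 16 libraries. Fits were tested on simulated data. Alternatives were 2 other filters, limma-voom on recovered reads, upper quartile and total read scaling, a prior count of 2, eBayes without trend and robust settings, a replicate block, and leaving out each library. Count models named in the design for raw counts were not run, because the unit is log2.

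IP and input libraries of 1 mouse code deviated together from their group means (r = 0.38 to 0.63 in CNO and 0.31 to 0.68 in vehicle mice), so the code was taken as pairing them. The main fits hold no term for the mouse, and their p-values treat the IP and input libraries of a mouse as independent. The mouse was a block in alternative fits only. Coordinates, exon lengths and overlaps are from GENCODE vM21 on GRCm38, the same assembly as mm10. Genes given with a value in every library are those called by CNO or in the interaction, those with the highest or lowest IP ratio of their group, those against its direction or not called there, and the 2 with the most input reads; others are given by a mean or a range. Some genes of the further lists are not reported here. The members and lists were chosen with earlier results of these data known.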

Additional observations from a re-analysis of the deposited data

Results flagged for a closer look

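Of 80 combinations of a gene or sum with a group, 4 held a library far from the other 3 of its group, while chance flags about 1 in 20 groups. Pdgfrb had 46.0 CPM in vehicle IP replicate 5, the lowest, against 68.6 to 69.4 in the other vehicle IP libraries, and the CNO IP libraries were lower still. Acta2 had 1.23 CPM in vehicle IP replicate 5, against 5.28 to 5.78 in the others, and 7.85 CPM in vehicle input replicate 4, against 2.96 to 3.31 in the others. Clec14a had 5.63 CPM in vehicle input replicate 5, against 3.60 to 3.77 in the others, and its CNO change in input remained called without that library. The effect of CNO on Pdgfrb differed between fractions, with a log2 change in IP minus that in input of -0.80 (limma adjusted p = 0.0216).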

How the results depend on the processing

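The number of genes called lower by CNO in input was 4 as reported, and 2 both without the trend and robust settings and with the replicate number as a block. In IP it was 2, and 1 with that block (Ptprb, 0.0563), and 1 gene was called higher in IP without the trend and robust settings. With the mouse as a block, 2 genes were called higher in IP than in input in vehicle mice; beside the changes given above for Ly6a, Myh11, Anpep, Col1a2 and Igf2, it changed no other call of a gene named with its values. With 1 library left out, CNO gave 0 to 1 higher and 1 to 3 lower in IP, 0 to 3 lower in input, and 0 to 1 lower in the interaction; IP over input gave 1 to 2 higher and 31 to 33 lower in vehicle mice. In input, Cldn5 (0.104) and Slco1a4 (0.0923) lost their calls without the trend and robust settings, Cldn5 (0.0668) and Clec14a (0.179) with the block, and Clec14a (0.0593) with limma-voom; the cause was not tested. Of the genes of further lists, the block ended the calls of Klf2 (0.0981), Lmod1 (0.0893), Ednra (0.0543) and Foxc1 (0.0971) in IP and of Klf4 (0.106) and Slc7a5 (0.0523) in input. Kcnj8 was called higher in IP without the trend and robust settings (0.0379). Signs turned only in genes not called: with libraries left out, the log2 change ran from -0.33 to 0.56 for Ly6a in IP, from -0.23 to 0.36 for Ly6a in input, from -0.13 to 0.072 for Ptprb in the interaction, and from -0.27 to 0.25 in CNO and -0.26 to 0.48 in vehicle mice for the Acta2 ratio. No single-gene value changed its call or sign with no filter, the stricter filter or a prior count of 2. The replicate numbers of CNO and vehicle mice share only a number (r = -0.30 to 0.22 in IP and -0.51 to 0.03 in input). Under upper quartile scaling 39.3% of all IP calls by CNO were higher, against 59.2% as deposited, and 40.7% against 50.2% for IP over input in vehicle mice. Over all genes, input calls lower numbered 29, 7 with the block and 4 to 27 with libraries left out; IP calls lower 1102, 717 with the block, 1945 under upper quartile scaling and down to 595 with libraries left out; interaction calls lower 93, 222 with the block, 165 under total reads and 198 under upper quartile scaling. Depth limits genes such as Lum, Slc6a13 and Higd1b, which had under 30 reads per IP library.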
